A study of Mus musculus with 13 samples.

Results

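The libraries described here compare mouse embryonic stem (ES) cells without the maintenance DNA methyltransferase Dnmt1 with wild-type ES cells, in 3 libraries per group, 6 of the 13 libraries of the series. The members were taken by their labels: the 3 replicate libraries named Dnmt1_null, of a line given as D1-null strain (C allele), and the 3 named WT, of the line AinV15, with every gene of their files. AinV15 carries the reverse tetracycline transactivator and a locus into which doxycycline-inducible cassettes can be exchanged, and both groups were left untreated. Both were grown without induction in serum and leukemia inhibitory factor on gelatin, and polyA RNA was sequenced. The loss of Dnmt1 and the change of cell line cannot be told apart, since all Dnmt1-null libraries come from one line and all WT libraries from the other. No label says that the replicates are separate cultures, so p-values measure the spread between these libraries, which may be technical.

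Dnmt1 copies the methylation of CpG sites onto the new DNA strand after replication, guided by Uhrf1, while Dnmt3a and Dnmt3b with their partner Dnmt3l set new methylation and the Tet enzymes oxidize it. Methylation at CpG-rich promoters is best known in mouse ES cells and the early embryo for keeping germline genes, one allele of imprinted genes and retrotransposons silent, and ES cells tolerate its loss as long as they do not differentiate. The account below goes through gene programmes beyond the germline and imprinted genes: pluripotency and lineage genes, interferon response, cytokines, matrix and cytoskeleton, signalling, metabolism, stress and large gene families.

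The reads recovered from the deposited values came to between 26846275 and 37112247 per WT library and between 27934568 and 30950554 per Dnmt1-null library. The values of a library summed to between 959084 and 964265 in WT and, without overlap, between 1017430 and 1036640 in Dnmt1-null cells. Within a library 1 read was worth between 0.0260 and 0.0368. The ES cell markers Pou5f1, Nanog, Zfp42 and Esrrb lay between 263 and 860.5 in every library of both groups, and Sox2 was not analysed here. Of the genes that define other cells, the fibroblast genes Col1a1, Col1a2, Col3a1, Thy1 and Dcn were read in all 6 libraries and are given with their list below, Gata4, Gata6 and Sox17 of primitive endoderm and Krt7 of trophoblast were also read, and Mesp1 of mesoderm and Elf5 of trophoblast were at or under 0.460 in every library.

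Dnmt1 itself, on chromosome 9 of GRCm38 from 20907209 to 20959888, had a normalized signal of 308, 352 and 347 in WT against 73.6, 75.4 and 77.6 in Dnmt1-null cells. The groups did not overlap, and the WT mean was 4.44 times the null mean (log2 difference −2.14, standard error 0.053, adjusted p = 1.1e-20). The files do not say where in the gene the remaining reads lie. Dazl, an RNA-binding protein of germ cells, was at 24.5, 22 and 23.9 in WT and 321, 316 and 331 in Dnmt1-null libraries. Scml2, a Polycomb protein of the germline on chromosome X, was at 4.78, 4.49 and 4.74 in WT against 91.6, 97.5 and 101 in Dnmt1-null cells. Both markers were lower in every WT library than in any Dnmt1-null library, by 3.75 and 4.23 on the log2 scale.

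Across the 17297 genes tested, 6196 (35.8%) were called higher and 6128 (35.4%) lower in Dnmt1-null cells at an adjusted p under 0.05 by limma, and 634 (3.67%) were called higher and 1627 (9.41%) lower with a difference of at least 2-fold. The median log2 difference of all genes tested was 0.0069. Falls outnumbered rises at each of these sizes: past 4-fold there were 64 rises and 345 falls, and past 8-fold 18 rises and 57 falls. These sizes are on the log2(value + 0.5) scale, which understates the change of genes of low signal.

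**Figure D1:**
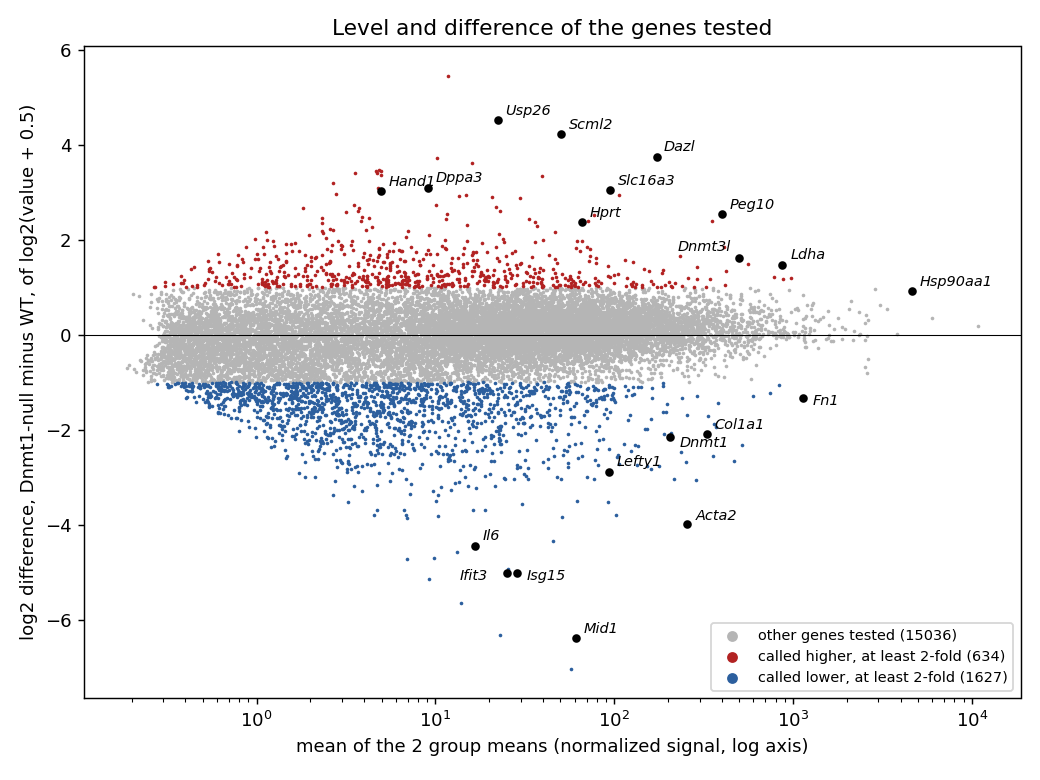
Each point is one of the 17297 genes tested; the x axis is the mean of the 2 group means in normalized signal on a log axis and the y axis the log2 difference, Dnmt1-null minus WT. Blue points (1627 genes called lower, at least 2-fold) outnumber red points (634 called higher, at least 2-fold), and the named genes are drawn in black.

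The counts of each gene list are to be read against these shares of all genes. Of the 16 genes of DNA methylation enzymes and readers, 5 were called higher and 9 lower, with a median log2 difference of −0.26. The largest rises were those of a writer of new methylation and of its partner. Dnmt3l was at 236, 252 and 253 in WT and 762, 736 and 766 in Dnmt1-null libraries, and Dnmt3b at 124, 125 and 133 in WT against 279.9, 263 and 284 in Dnmt1-null cells. Neither gene's groups overlapped (log2 differences 1.61 and 1.11, standard errors 0.050 and 0.050, adjusted p = 8.4e-19 and 1.1e-15). Uhrf1, which recruits Dnmt1 to hemimethylated sites, was higher by 0.37 and Dnmt3a by 0.17 on the log2 scale, both called, the second not when each library was scaled by its own total of reads. The oxidases Tet1 and Tet2 were lower by 0.32 and 0.35, also called, and Tet3 was at 22.8, 23.6 and 21.9 in WT and 19.6, 20.8 and 21.6 in Dnmt1-null libraries and was not called (adjusted p = 0.076). Zbtb38, a methyl-CpG binding zinc finger protein, had the largest fall of the readers (log2 difference −0.91).

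**Figure D2:**
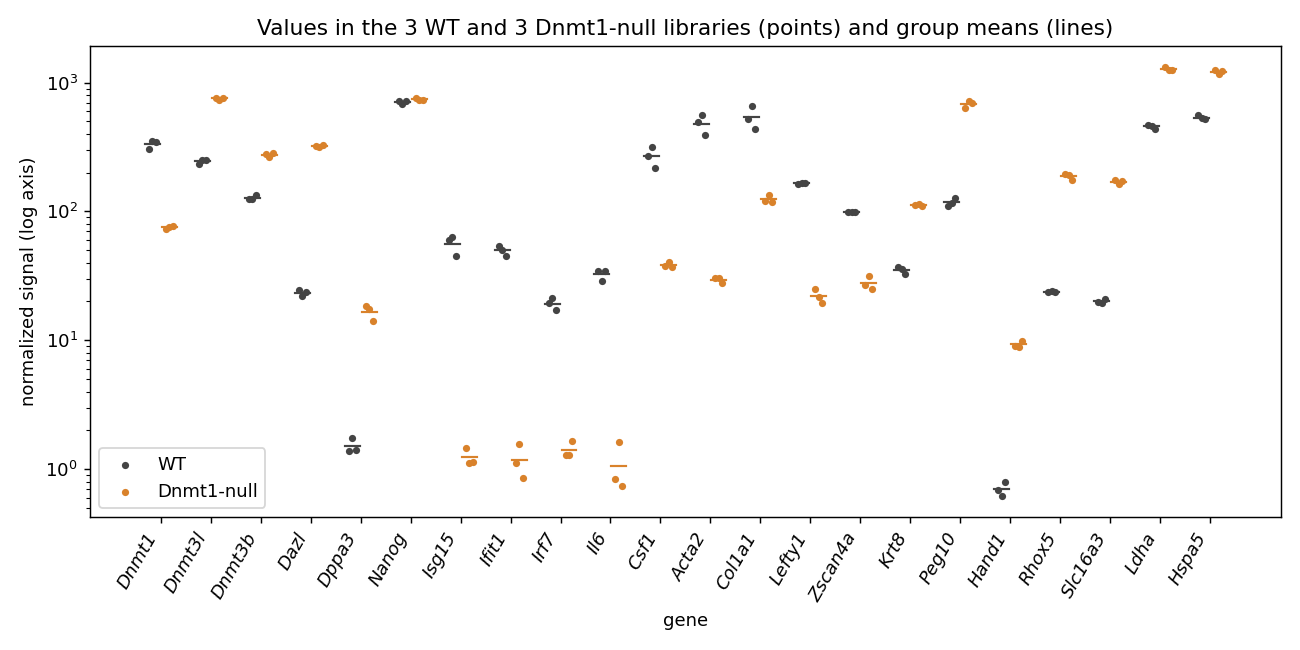
Normalized signal (log axis) of 22 genes in each of the 3 WT libraries (grey points) and the 3 Dnmt1-null libraries (orange points), with lines at the group means. The points of the groups do not overlap for any of these genes, and Nanog, whose groups lie closest, is the one gene that was not called.

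The core and naive pluripotency genes moved little. Of 21 tested, 5 were called higher and 10 lower, 1 of them at least 2-fold, with a median log2 difference of −0.11. Nanog was at 716, 680.2 and 723 in WT against 766, 738 and 737 in Dnmt1-null cells, and this difference did not pass the test (log2 difference 0.081, adjusted p = 0.17). Esrrb, an orphan nuclear receptor of the naive state, was at 769, 799.9 and 828 in WT and 579, 579.5 and 597 in Dnmt1-null libraries, lower in each Dnmt1-null library than in any WT library (log2 difference −0.45). The member past 2-fold was Nr0b1, a nuclear receptor corepressor on chromosome X, at 189, 191 and 196 in WT against 95.1, 86.2 and 88.1 in Dnmt1-null cells (log2 difference −1.09, standard error 0.050, adjusted p = 1.5e-15). The call counts depended on the scaling: with each library scaled by its own total of reads, 3 members were called higher.

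Genes of the formative and primed epiblast, the state that follows naive pluripotency, were lower on balance: 9 of 17 tested were called lower and 2 higher (median log2 difference −0.56). Cdh2, the cadherin that replaces E-cadherin as cells leave the epiblast, was at 49.6, 53.3 and 43.9 in WT and 13.9, 12.7 and 12.6 in Dnmt1-null libraries (log2 difference −1.86, standard error 0.072, adjusted p = 5.6e-17). Fst, which encodes the activin antagonist follistatin, was at 24.5, 26.4 and 24.4 in WT against 9.89, 8.28 and 8.51 in Dnmt1-null cells, and the zinc finger gene Zic2 was lower by 1.40 on the log2 scale. The signal of Fgf5, the classical marker of this state, was 2.46, 2.34 and 2.01 in WT and 0.975, 0.526 and 0.553 in Dnmt1-null libraries, low throughout and lower in each Dnmt1-null library. Grhl2, a transcription factor of epithelia, went the other way, at 19.1, 19.7 and 20.1 in WT against 42.8, 42.1 and 42 in Dnmt1-null cells (log2 difference 1.09, standard error 0.060, adjusted p = 5.5e-14), and Foxd3 was higher by 0.94. In the neural list 6 of 9 were called lower and none higher. Its largest falls were those of the cell adhesion gene Ncam1 (log2 difference −1.49) and of Nes, an intermediate filament of progenitors (log2 difference −1.40), and its defining gene Pax6 stood at 3.57, 3.09 and 3.59 in WT and 2.02, 2.14 and 2.17 in Dnmt1-null libraries; Sox1 and Tubb3 were not analysed here.

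Primitive endoderm and trophoblast lists were higher on balance. Of 18 primitive endoderm genes, 11 were called higher and 1 lower, 5 of them at least 2-fold higher, with a median log2 difference of 0.50. Pth1r, the receptor for parathyroid hormone-related protein, was at 5.53, 5.53 and 6.47 in WT against 19.3, 17.6 and 19.7 in Dnmt1-null cells, and Cubn, an endocytic receptor, at 19.7, 19.8 and 22 in WT and 49.1, 49.9 and 55.9 in Dnmt1-null libraries. Neither gene's groups overlapped (log2 differences 1.61 and 1.31, standard errors 0.089 and 0.066, adjusted p = 4.9e-14 and 8.4e-15). Foxa2 and Sox17, transcription factors of endoderm, were higher by 1.18 and 1.03. The defining gene Gata4 was higher by only 0.41, and Gata6, at 42.8, 43.3 and 39.1 in WT against 48.4, 41.5 and 46.2 in Dnmt1-null cells, was not called (adjusted p = 0.096). Sparc, a matrix protein and the member of highest signal, was at 845, 936 and 756 in WT and 917, 907 and 942 in Dnmt1-null libraries and was not called. The summed signal of the list was 3169, 3459 and 3091 in WT against 3651, 3625 and 3808 in Dnmt1-null cells, so that the groups differed by 1.14-fold.

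Of 17 trophoblast genes, 13 were called higher and 4 lower, 8 of them at least 2-fold higher (median log2 difference 0.69). Peg10, a retrotransposon-derived gene of the placenta that is also imprinted, was at 111, 116 and 126 in WT and 633, 725 and 699.6 in Dnmt1-null libraries (log2 difference 2.54, standard error 0.057, adjusted p = 1.7e-21). Its signal in Dnmt1-null cells was 5.83 times that in WT cells. Krt8, a keratin of simple epithelia, was at 36.9, 35.7 and 32.8 in WT against 112, 114 and 110.1 in Dnmt1-null cells, and Tead4, a transcription factor that starts the trophectoderm programme, at 19.6, 19.7 and 21.9 in WT and 63.5, 68.4 and 67.2 in Dnmt1-null libraries. For each of these genes the lowest Dnmt1-null library lay above the highest WT library (log2 differences 1.66 and 1.68, standard errors 0.054 and 0.061, adjusted p = 2.2e-18 and 1.6e-17). Hand1, a factor of giant cells and of mesoderm on chromosome 11, was at 0.688, 0.623 and 0.790 in WT against 8.98, 8.94 and 9.91 in Dnmt1-null cells (log2 difference 3.03, standard error 0.12, adjusted p = 8.7e-17). Of the defining genes, Cdx2 was low in both groups, at 0.720, 0.286 and 0.431 in WT and 0.870, 1.02 and 0.884 in Dnmt1-null libraries, and called higher, Elf5 was too low to be tested, and Krt7 was at 12.2, 12.2 and 8.69 in WT against 6.69, 5.75 and 6.23 in Dnmt1-null cells and called lower. With genes of a mean value under 5 left out, 8 members were called higher. In the mesoderm list 4 of 14 were called higher and 6 lower, and without the 2 members on chromosome 11, 2 of 12 were higher and 6 lower. Besides Hand1, Eomes was the largest rise, at 3.73, 4.28 and 4.56 in WT and 9.82, 9.20 and 9.10 in Dnmt1-null libraries, and Twist1 and Snai2, which drive epithelial-mesenchymal transition, were lower by 1.03 and 1.02. T, the defining streak gene, was at 0.557, 0.779 and 0.647 in WT against 0.383, 0.690 and 0.737 in Dnmt1-null cells and was not called.

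**Figure D3:**
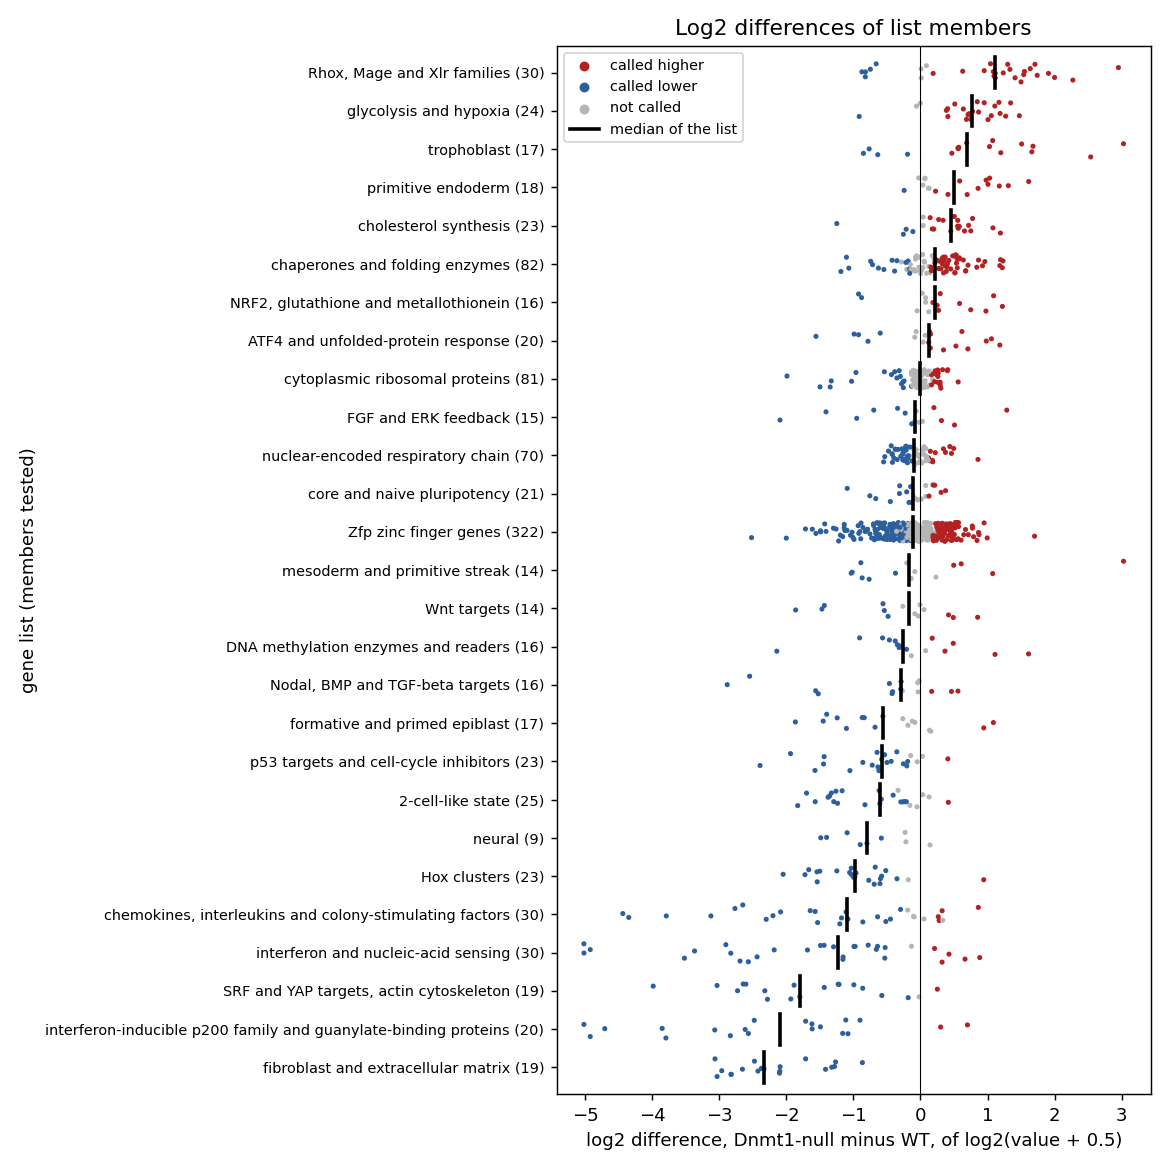
Each point is a tested member of a gene list, placed by its log2 difference, Dnmt1-null minus WT, and coloured by its call at an adjusted p of 0.05 by limma; black bars are list medians and the numbers in brackets the members tested. Medians run from −2.33 for fibroblast and extracellular matrix genes to 1.11 for the Rhox, Mage and Xlr families.

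The 2-cell-like state is a rare condition of cultured ES cells that express genes of the embryo's first genome activation, among them the Zscan4 cluster and the Duxf3 family. Of 25 such genes, 19 were called lower, 10 of them at least 2-fold, and 1 was called higher (median log2 difference −0.61). That one, Tdpoz2, was no longer called without WT replicate 1, WT replicate 2 or Dnmt1-null replicate 2. Zscan4c, the member best known for telomere upkeep, was at 145, 135 and 136 in WT and 51.7, 56.8 and 53.5 in Dnmt1-null libraries, and Zscan4a at 99.5, 99.4 and 99.1 in WT against 26.7, 31.6 and 24.8 in Dnmt1-null cells. All 6 Zscan4 genes were called lower, by between 1.33 and 1.83 on the log2 scale. These copies are near-identical, and the counting could have moved reads among them, so values of single members are uncertain. The summed signal of the list was 1137, 1092 and 1098 in WT and 479.8, 536 and 478 in Dnmt1-null libraries.

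Hox genes, which pattern the body axis and are kept at low level in ES cells by Polycomb proteins, were lower almost throughout. Of 23 tested, 21 were called lower and 1 higher, with a median log2 difference of −0.98. Their signal was low in both groups: Hoxb8 was at 3.37, 4.28 and 3.16 in WT against 0.453, 0.493 and 0.516 in Dnmt1-null cells and Hoxa7 at 5.70, 6.05 and 5.42 in WT and 1.64, 1.41 and 1.14 in Dnmt1-null libraries. The only member called higher was Hoxd1, at 0.0982, 0.545 and 0.287 in WT against 0.801, 1.22 and 1.07 in Dnmt1-null cells. Without the 6 members on chromosome 11, 15 of 17 were called lower.

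The X-linked Rhox, Mage and Xlr families, homeobox and cancer-testis genes that are known to be methylated in somatic cells, had a list median of 1.11, and of 0.58 under the alternative that lowered it most. Of 53 genes listed only 30 passed the filter on low reads, and of these 22 were called higher, 19 of them at least 2-fold, and 5 lower. A gene read only where it is high passes this filter more easily, so the count describes the genes that passed, and with no filter 34 were called higher. Rhox5, a homeobox gene active in Sertoli cells and placenta, was at 23.5, 24.3 and 23.6 in WT and 195, 191 and 176 in Dnmt1-null libraries (log2 difference 2.95, standard error 0.053, adjusted p = 3.0e-23). Rhox2a was at 1.05, 1.25 and 1.26 in WT against 7.24, 8.45 and 7.22 in Dnmt1-null cells, and reads of the Rhox2 copies may be shared. Xlr3a, of the X-linked lymphocyte-regulated family, was at 26.4, 25.8 and 27.8 in WT and 70.9, 69 and 59.9 in Dnmt1-null libraries, with no overlap. The members called lower were Magee1, Mageh1, Magea4, Magee2 and Maged2, of which Mageh1, Maged2 and the Magee genes are known to be broadly expressed outside the germline. The promoters of Dazl and Rhox5 show how such genes differ in CpG content. The 250 bases before each start are given from RefSeq, 5′ to 3′ on the strand of the gene, with each CpG in capitals, for Dazl at chr17:50293621-50293870 (minus strand, 20 CpG) and Rhox5 at chrX:37754358-37754607 (plus strand, 4 CpG) of GRCm38.p6.
Dazl: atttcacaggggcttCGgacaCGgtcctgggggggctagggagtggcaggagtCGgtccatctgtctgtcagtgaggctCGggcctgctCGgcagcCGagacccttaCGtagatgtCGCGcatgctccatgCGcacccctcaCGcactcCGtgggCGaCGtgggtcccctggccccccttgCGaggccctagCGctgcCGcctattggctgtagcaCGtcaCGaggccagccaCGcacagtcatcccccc
Rhox5: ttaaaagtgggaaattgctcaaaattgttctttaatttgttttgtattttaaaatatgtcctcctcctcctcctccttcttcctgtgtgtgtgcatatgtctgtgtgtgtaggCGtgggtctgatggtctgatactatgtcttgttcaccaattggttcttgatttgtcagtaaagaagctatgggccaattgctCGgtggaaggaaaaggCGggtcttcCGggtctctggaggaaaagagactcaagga
The CpG sites of Dazl are spread along the whole stretch and those of Rhox5 are few. Over all 17230 tested genes whose stretch could be read from the GRCm38 genome at the start of the GENCODE gene record, the median was 11 CpG.

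Interferon-stimulated genes were far lower in Dnmt1-null cells. Type I interferon acts through transcription factors such as Stat2 and Irf9, which raise antiviral effectors such as the Ifit proteins and the ubiquitin-like Isg15, and intracellular RNA and DNA are sensed by Ddx58, Ifih1 and the cGAS-STING pair. Of 30 tested genes of this list, 24 were called lower, 17 of them at least 2-fold, and 5 higher, with a median log2 difference of −1.23. Among the effectors, Isg15 was at 59.9, 63.7 and 45.1 in WT against 1.46, 1.12 and 1.14 in Dnmt1-null cells, and Ifit1 at 53.7, 50.5 and 45.1 in WT and 1.11, 1.58 and 0.847 in Dnmt1-null libraries. Ifit3 was at 54, 53.1 and 40.3 in WT against 0.975, 1.31 and 0.811 in Dnmt1-null cells. Each was at an order of magnitude or more above the null libraries in every WT library, with means 45.3, 42.2 and 47.5 times as high (log2 differences −5.02, −4.92 and −5.02, standard errors 0.11, 0.12 and 0.12, adjusted p = 1.5e-21, 5.6e-21 and 5.0e-21). The antiviral enzyme Rsad2 was at 12.8, 10.6 and 10.5 in WT and 0.801, 1.41 and 1.33 in Dnmt1-null libraries, and the deconjugase Usp18 was read 627 times over the WT libraries and 8 times over the Dnmt1-null libraries.

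Of the transcription factors of the response described here, Irf7 fell most. Irf7, which amplifies the response, was at 19.5, 21.1 and 17 in WT against 1.29, 1.28 and 1.66 in Dnmt1-null cells (log2 difference −3.37, standard error 0.11, adjusted p = 3.0e-18). The groups did not overlap. Irf9 was lower by 1.15, while Stat2 was not called (log2 difference −0.13, adjusted p = 0.056). Among the sensors, Ifih1 was lower by 2.90 and Tlr3 by 1.16, Ddx58 only by 0.53, and Mb21d1, which encodes cGAS, was higher, at 3.70, 3.58 and 3.41 in WT and 6.55, 7.13 and 7.33 in Dnmt1-null libraries. Its partner Tmem173, which encodes STING, was lower by 1.30. Irf1, on chromosome 11, and the adaptor Mavs were also called higher, by 0.66 and 0.21, the latter not when each library was scaled by its own total. A further list of interferon-inducible p200, Ifit and guanylate-binding protein genes, chosen after values were seen, held 27 genes, of which 20 passed the filter on low reads. Of these, 18 were called lower and 2 higher. Genes read only where they are high pass this filter more easily, so the count describes the genes that passed. Ifi204, of the p200 DNA sensors, was at 16.1, 12.2 and 11.8 in WT against 0.383, 0.394 and 0.590 in Dnmt1-null cells. The guanylate-binding protein gene Gbp3 was at 10.8, 11.4 and 8.98 in WT and 0.975, 0.625 and 0.811 in Dnmt1-null libraries.

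The promoters of these effectors are printed because they share a motif of interferon response elements. In the 250 bases before the start, given from RefSeq (GRCm38.p6) 5′ to 3′ on the strand of the gene, capitals mark GAAANNGAAA on either strand (TTTCNNTTTC where it lies on the other strand): Isg15 at chr4:156200819-156201068 (minus strand, 3 overlapping matches), Ifit1 at chr19:34640639-34640888 (plus strand, 2), Ifit3 at chr19:34583279-34583528 (plus strand, 2) and Rsad2 at chr12:26456453-26456702 (minus strand, 1).
Isg15: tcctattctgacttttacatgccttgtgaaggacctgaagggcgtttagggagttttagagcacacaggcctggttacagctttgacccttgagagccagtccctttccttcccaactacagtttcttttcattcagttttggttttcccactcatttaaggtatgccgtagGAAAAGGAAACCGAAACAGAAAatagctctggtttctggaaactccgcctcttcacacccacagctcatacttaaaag
Ifit1: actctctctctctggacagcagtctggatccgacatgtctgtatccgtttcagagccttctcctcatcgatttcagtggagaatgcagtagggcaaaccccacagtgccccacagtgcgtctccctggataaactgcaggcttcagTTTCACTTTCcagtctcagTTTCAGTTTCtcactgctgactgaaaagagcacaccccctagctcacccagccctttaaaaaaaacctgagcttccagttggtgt
Ifit3: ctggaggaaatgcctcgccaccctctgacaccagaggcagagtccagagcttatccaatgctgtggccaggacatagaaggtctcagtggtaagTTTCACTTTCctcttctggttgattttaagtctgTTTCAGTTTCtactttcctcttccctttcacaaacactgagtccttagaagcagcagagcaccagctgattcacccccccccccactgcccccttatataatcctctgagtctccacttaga
Rsad2: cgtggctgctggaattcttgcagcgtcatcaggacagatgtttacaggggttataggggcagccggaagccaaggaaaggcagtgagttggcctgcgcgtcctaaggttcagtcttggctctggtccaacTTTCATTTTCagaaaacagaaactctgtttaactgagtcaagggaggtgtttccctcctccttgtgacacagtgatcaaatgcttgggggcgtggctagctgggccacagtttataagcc
The motif was held by 9 of the 30 tested genes of the list and by 510 of 17230 tested genes (2.96%). At the same starts Irf7 does not hold these letters in that window, and Oas1a, which does, was called higher, at 21.7, 23 and 24.1 in WT against 32.5, 30.9 and 29.4 in Dnmt1-null cells. Among genes called lower at least 2-fold the share was 5.13%, and among those called higher at least 2-fold 2.21%.

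Secreted signals of inflammation went the same way. A list of chemokines, interleukins and colony-stimulating factors, chosen after values were seen, held 55 genes, of which 30 passed the filter on low reads. Of these 30, 21 were called lower, 16 of them at least 2-fold, and 4 higher. The 4 became 2 without WT replicate 1 or without Dnmt1-null replicate 1. A gene read only where it is high passes this filter more easily, so the count describes the genes that passed. The list median was −1.10, and −0.18 under the alternative that shrank it most. Il6, a cytokine that signals through gp130 as leukemia inhibitory factor does, was at 34.2, 28.9 and 34.2 in WT and 0.836, 1.61 and 0.737 in Dnmt1-null libraries, and Ccl7, a monocyte chemokine, at 94.2, 83.7 and 84.3 in WT against 4.39, 3.55 and 3.54 in Dnmt1-null cells. Csf1, the growth factor of macrophages, was at 268, 317 and 218 in WT and 37.6, 40.6 and 37.3 in Dnmt1-null libraries. For each of them the lowest WT library lay several fold above the highest Dnmt1-null library (log2 differences −4.44, −4.35 and −2.76, standard errors 0.14, 0.080 and 0.081, adjusted p = 1.2e-18, 4.3e-23 and 3.2e-19). Without the 8 members on chromosome 11, 14 of 22 were called lower.

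Every one of the 19 fibroblast and extracellular matrix genes tested was called lower, 18 of them at least 2-fold, with the lowest list median, −2.33. Col1a1, the main chain of fibrillar collagen, was at 524, 654 and 440.1 in WT against 121, 133 and 119 in Dnmt1-null cells, and Col3a1 at 235, 259.6 and 185 in WT and 45, 46.9 and 40.6 in Dnmt1-null libraries. Lox, the enzyme that cross-links collagen, was at 415, 424 and 324 in WT against 47, 49.1 and 43.8 in Dnmt1-null cells. WT replicate 3 was the lowest WT library and WT replicate 2 the highest for these genes, and the groups stood apart (log2 differences −2.09, −2.33 and −3.03, standard errors 0.084, 0.080 and 0.072, adjusted p = 1.3e-16, 6.3e-18 and 5.0e-21). Timp2, an inhibitor of matrix proteases, and Dcn, a collagen-binding proteoglycan, fell by 3.06 and 2.96 on the log2 scale. None of the defining fibroblast genes was at 0 in the null libraries: Thy1 was at 55, 59.9 and 44 in WT and 16.7, 15.4 and 15 in Dnmt1-null libraries and Dcn at 61.3, 60.04 and 49.4 in WT against 7.66, 7.73 and 5.38 in Dnmt1-null cells. The summed signal of the list was 6405, 7355 and 5403 in WT and 1672, 1725 and 1664 in Dnmt1-null libraries. In these bulk libraries fewer cells of a type and less RNA per cell cannot be told apart.

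Targets of serum response factor (SRF) and of YAP, and the actin cytoskeleton genes listed with them, fell too: 17 of 19 tested were called lower, 13 at least 2-fold, and 1 higher (median log2 difference −1.80). Acta2, the actin of smooth muscle and myofibroblasts, was at 491, 559.9 and 392 in WT against 30.3, 30.5 and 28.1 in Dnmt1-null cells (log2 difference −3.98, standard error 0.079, adjusted p = 2.0e-22). Myl9, a light chain of myosin, was at 61, 66.2 and 51.3 in WT and 6.09, 7.50 and 6.85 in Dnmt1-null libraries, and Ankrd1 at 59.7, 58.4 and 46.2 in WT against 9.12, 8.32 and 7.52 in Dnmt1-null cells. The groups did not overlap for these genes. Unlike most members of the list, Ctgf and Cyr61 barely moved. Ctgf was at 105, 102 and 93.5 in WT and 87.7, 85.5 and 91.5 in Dnmt1-null libraries. Cyr61, the one member called higher, was at 116, 127 and 106 in WT against 139, 134 and 142 in Dnmt1-null cells. The summed signal of this list was 5583, 6196 and 4853 in WT and 2095, 2075 and 2120.2 in Dnmt1-null libraries, of the interferon list 986, 1015 and 876 in WT against 428, 429 and 419 in Dnmt1-null cells, and of the cytokine list 560.1, 590.0 and 475 in WT and 103, 105 and 98.2 in Dnmt1-null libraries. All 3 sums, and that of the fibroblast list, were lowest in WT replicate 3 and highest in WT replicate 2 among the WT libraries. The sums of the neural, mesoderm, primitive endoderm, Rhox, Mage and Xlr, and Nodal lists had the same order. The part that cells or RNA of fibroblast kind had in the falls of these lists was not tested.

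Among signalling genes, those of the Nodal, BMP and TGF-beta list leaned lower. Of 16 Nodal, BMP and TGF-beta genes 3 were called higher and 9 lower (median log2 difference −0.29). Lefty1, a Nodal antagonist, was at 163, 167 and 167 in WT against 25.1, 21.9 and 19.5 in Dnmt1-null cells (log2 difference −2.88, standard error 0.066, adjusted p = 2.5e-21). Its neighbour Lefty2, at 103, 100.0 and 104 in WT and 148, 139 and 137 in Dnmt1-null libraries, was called higher, as was the ligand Nodal itself, by 0.17. The call of Nodal was lost without Dnmt1-null replicate 1, where the difference was 0.119. Id3, a target of BMP signals, was lower by 1.56. Among 14 Wnt targets 3 were called higher and 6 lower; Cdx1 was at 9.17, 8.39 and 8.87 in WT against 1.98, 2.30 and 1.92 in Dnmt1-null cells and Ccnd1, which encodes cyclin D1, at 109, 122 and 98.9 in WT and 41.2, 36 and 41 in Dnmt1-null libraries, while the feedback gene Axin2, on chromosome 11, was lower by 0.54. Without the 5 members on chromosome 11, 1 of 9 was called higher and 4 were called lower. Among 15 genes of FGF and ERK feedback 4 were called higher and 7 lower. The early response genes Ier3, Fosl1 and Fos were lower by 2.09, 1.41 and 0.95, and the ETS factor Etv4, on chromosome 11, was higher at 61.7, 60.8 and 60.8 in WT against 151, 150.3 and 148 in Dnmt1-null cells.

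Of 23 p53 targets and cell-cycle inhibitors, 19 were called lower, 6 at least 2-fold, and 1 higher (median log2 difference −0.58). Fas, a death receptor, was at 10.6, 11.5 and 8.87 in WT and 1.53, 1.74 and 1.40 in Dnmt1-null libraries, and Cdkn1c, an imprinted inhibitor of cyclin-dependent kinases, at 19.9, 17.9 and 20.3 in WT against 4.32, 5.03 and 4.72 in Dnmt1-null cells. Both fell in every null library (log2 differences −2.39 and −1.94, standard errors 0.12 and 0.090, adjusted p = 7.2e-15 and 2.0e-15). Cdkn2a and Cdkn2b, neighbouring genes that brake the cell cycle, were lower by 1.44 and 1.45. Cdkn1a, the p21 gene and best known p53 target, was at 332, 370.3 and 298 in WT and 186, 183 and 180.3 in Dnmt1-null libraries, and Mdm2, the p53 ligase, was lower by only 0.19. Trp53inp1 was the one member called higher, by 0.41.

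Glycolysis and hypoxia genes were higher nearly throughout: 21 of 24 were called higher, 8 of them at least 2-fold, and 1 lower, with a median log2 difference of 0.76. Ldha, which turns pyruvate into lactate, was at 470.0, 463 and 439.6 in WT against 1315, 1245 and 1256 in Dnmt1-null cells (log2 difference 1.47, standard error 0.053, adjusted p = 1.5e-17). The glucose transporter gene Slc2a1 was at 167, 188 and 179.8 in WT and 409, 399 and 409.7 in Dnmt1-null libraries and Egln3, an oxygen-sensing hydroxylase, at 7.27, 6.18 and 6.82 in WT against 17.9, 16.2 and 19.7 in Dnmt1-null cells. The groups stood apart for these genes. Gapdh was at 127, 128 and 137 in WT and 122, 125 and 129 in Dnmt1-null libraries and was not called, and Vegfa, a hypoxia target, was the one member called lower (log2 difference −0.91). The summed signal was 8075, 8425 and 8118 in WT against 14044, 13612 and 13854 in Dnmt1-null cells. Slc16a3, the exporter of lactate on chromosome 11, was at 19.9, 19.6 and 20.8 in WT and 176, 164 and 171 in Dnmt1-null libraries (log2 difference 3.05, standard error 0.053, adjusted p = 1.7e-23). Of the 70 nuclear-encoded respiratory chain genes 12 were called higher and 30 lower, none at least 2-fold, and their summed signal was 11262, 11244 and 11173 in WT against 11702, 11132 and 10818 in Dnmt1-null cells. With each library scaled by its own total, 7 were called higher. Atp5g1, an ATP synthase subunit on chromosome 11, had the largest difference of these (log2 0.86). The mitochondrially encoded genes were not analysed here.

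Cholesterol synthesis genes were higher as well: 17 of 23 were called higher and 4 lower (median log2 difference 0.45). Tm7sf2, a sterol reductase, was at 3.50, 4.26 and 4.17 in WT and 8.22, 9.43 and 9.21 in Dnmt1-null libraries (log2 difference 1.08, standard error 0.11, adjusted p = 2.1e-09). The groups did not overlap. Hmgcs1, the synthase at the start of the pathway, was at 90.5, 90.1 and 98.4 in WT against 157, 156 and 166 in Dnmt1-null cells, and Idi1, which makes the isoprenoid building block, was higher by 0.75. Of 16 genes of the NRF2, glutathione and metallothionein list 9 were called higher and 2 lower. Nqo1, a quinone reductase, was at 24.1, 22.9 and 19.9 in WT and 53.2, 51 and 53.4 in Dnmt1-null libraries, and Gsr, which recycles glutathione, at 60.9, 63.4 and 66.6 in WT against 139, 132 and 137 in Dnmt1-null cells. These groups did not overlap (log2 differences 1.22 and 1.09, standard errors 0.066 and 0.051, adjusted p = 3.6e-14 and 2.0e-15). Hmox1, the heme oxygenase gene, was at 200.3, 226 and 178 in WT and 218, 216 and 220.4 in Dnmt1-null libraries and was not called, and the cystine transporter gene Slc7a11 was lower by 0.92.

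Chaperones of the endoplasmic reticulum and cytosol leaned higher. In the list of ATF4 and unfolded-protein response genes 11 of 20 were called higher and 5 lower (median log2 difference 0.13), and with each library scaled by its own total 7 were called higher. Hspa5, the main chaperone of the endoplasmic reticulum, was at 557, 529 and 522 in WT against 1247, 1177 and 1229.5 in Dnmt1-null cells (log2 difference 1.18, standard error 0.054, adjusted p = 1.2e-15), and Xbp1, on chromosome 11, at 94, 89.4 and 94.7 in WT and 197, 192 and 191 in Dnmt1-null libraries. Chac1, a target of ATF4 that degrades glutathione, went the other way, at 47.5, 49.99 and 45.1 in WT against 16.2, 15.3 and 15.9 in Dnmt1-null cells, and Ddit3, the CHOP gene, was lower by 0.60. In a list of 82 tested chaperones and folding enzymes, chosen after values were seen, 44 were called higher and 14 lower, with a median of 0.22. Hsp90aa1, the cytosolic HSP90 that stress induces, was at 3409, 2966 and 3208 in WT and 6317, 6053 and 5807 in Dnmt1-null libraries and had the largest gain in mean signal of all genes, 2864. The stress-induced Hspa1b was lower by 0.35. The calnexin gene Canx and the protein disulfide isomerase gene P4hb, both on chromosome 11, were higher by 1.19 and 1.22. Of the 81 cytoplasmic ribosomal protein genes 18 were called higher and 18 lower. Their median was −0.00048, and under the scaling of each library by its own total 35 were called lower, so no direction is given for the family. The retrocopy Rpl10l, at 229.9, 239 and 246 in WT against 59.6, 58.8 and 60.4 in Dnmt1-null cells, and Rpl34, at 119, 118 and 114 in WT and 44, 44.6 and 35.4 in Dnmt1-null libraries, can share reads with near-identical copies and are uncertain.

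Of the 322 Zfp zinc finger genes tested 83 were called higher and 130 lower, 1 and 21 of them at least 2-fold, and the median was −0.11. That is 25.8% higher and 40.4% lower, against 35.8% and 35.4% of all genes. Zfp536, a repressor of neuronal differentiation, was at 7.60, 7.19 and 8.40 in WT against 0.801, 1.18 and 0.847 in Dnmt1-null cells, and Zfp658, the one member past 2-fold upward, at 1.38, 1.09 and 1.11 in WT and 5.12, 5.52 and 4.38 in Dnmt1-null libraries. Both genes' libraries stood apart by group. One clustered protocadherin gene was listed and none passed the filter.

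The 12 largest rises among genes with a mean value of at least 5 in the higher group, with gene models and pseudogenes left out, were those of Usp26, Scml2, Dazl, Tex13, Dnaaf1, AV320801, Dppa3, Slc16a3, Hand1, Pramel3, AI481877 and Rhox5. Usp26, a deubiquitinase gene of the germline on chromosome X, was at 1.67, 1.32 and 1.22 in WT against 41.2, 41.9 and 46.6 in Dnmt1-null cells (log2 difference 4.53, standard error 0.10, adjusted p = 1.3e-21). Dnaaf1, an assembly factor of dynein arms in motile cilia, was at 1.93, 2.21 and 1.76 in WT and 29.2, 29.8 and 30.8 in Dnmt1-null libraries. Dppa3, also called Stella, an oocyte protein that guards maternal methylation, was at 1.38, 1.74 and 1.40 in WT against 18.5, 17.4 and 14.2 in Dnmt1-null cells. Each of these genes was low but read in every WT library, and its groups did not overlap. Tex13, AV320801, Pramel3, Usp26, Scml2 and Rhox5 lie on chromosome X. The 12 largest falls were those of Mid1, Ifit3, Isg15, Ifit1, Mir692-1, Ifit3b, Gvin1, Il6, Ccl7, Acta2, Ifi204 and Upk1b, of which 6, Ifit3, Isg15, Ifit1, Ifit3b, Gvin1 and Ifi204, are known interferon-induced genes. Mid1, a ubiquitin ligase gene that reaches into the pseudoautosomal region of chromosome X in laboratory mice, was at 117, 124 and 124 in WT and 0.627, 1.28 and 1.03 in Dnmt1-null libraries (log2 difference −6.39, standard error 0.11, adjusted p = 1.7e-23). Upk1b, a uroplakin, was at 101, 106 and 80.9 in WT against 6.37, 6.44 and 5.93 in Dnmt1-null cells. Hprt, a purine salvage gene on chromosome X where AinV15 cells are known to hold their cassette, named here after its values were seen, was at 24.2, 20.8 and 18.3 in WT and 114, 107 and 112 in Dnmt1-null libraries (log2 difference 2.38, standard error 0.071, adjusted p = 4.5e-19).

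By mean signal the largest gains after Hsp90aa1 were those of Hspa8, Hsp90ab1, Pkm, Npm1, Ncl, Ldha, Rack1, Canx and Pabpc1. Pkm, the pyruvate kinase of dividing cells, was at 2363, 2519.7 and 2285 in WT against 3862, 3699 and 3599 in Dnmt1-null cells, and Ncl, the nucleolar protein nucleolin, at 1551, 1556 and 1667 in WT and 2596, 2498 and 2721 in Dnmt1-null libraries. Among the largest losses of named genes were those of Fn1, Thbs1, Fbln2, Flna, Spp1 and Vim, beside Gm28437, Gm10925 and Gm28661, gene models of chromosome 1 that are known as nuclear copies of mitochondrial DNA and can share its reads. Fn1, which encodes fibronectin, was at 1569, 1863 and 1480.1 in WT against 633, 667 and 654 in Dnmt1-null cells, and Vim, the intermediate filament of mesenchymal cells, at 856, 971 and 714 in WT and 346, 346 and 345 in Dnmt1-null libraries. In the strictest sense of presence, 2 genes had at most 3 reads in every WT library and a value of at least 1 in every Dnmt1-null library, 1700080O16Rik on chromosome X and the pseudogene Rps15a-ps8, and 16 showed the reverse, 8 of them gene models or pseudogenes. Besides Usp18, the others included Iigp1, an interferon-induced GTPase, with 361 reads over the WT libraries and 2 over the null libraries, Csf3 with 119 and 4, Ifit1bl1, Tnip3, Kcnj15 and Mir692-1.

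Differences were spread unevenly over chromosomes. On chromosome 11 the median log2 difference of 1198 protein-coding genes was 0.38, and 123 were called at least 2-fold higher and 68 lower. On the other 18 autosomes medians lay between −0.062 and 0.091, and between 1.68% and 5.28% of genes were called at least 2-fold higher, against 10.3% on chromosome 11. Chromosome X had a median of 0.025, near that of the autosomes, and of 567 genes 75 rose and 63 fell past 2-fold. Of 9 genes tested on chromosome Y, 8 were called lower, among them Uty, a histone demethylase relative, at 38.3, 31.4 and 40.05 in WT against 9.26, 8.32 and 8.70 in Dnmt1-null cells, and Ddx3y, an RNA helicase, at 113, 102 and 106 in WT and 36.7, 35.9 and 31.6 in Dnmt1-null libraries. Rises named above on chromosome 11, those of Hand1, Slc16a3, Xbp1, Etv4, Canx, P4hb, Irf1, Atp5g1, Npm1 and Rack1, stand beside this shift of 0.38.

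**Figure D4:**
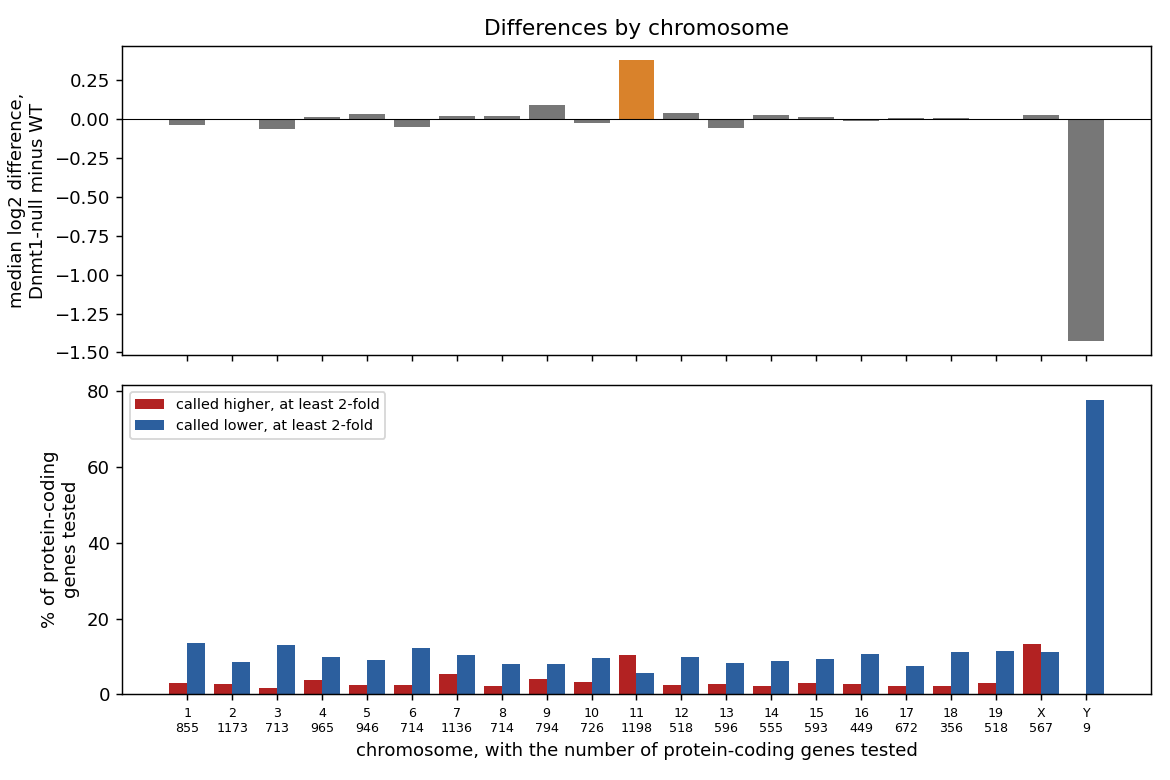
Top, median log2 difference, Dnmt1-null minus WT, of the protein-coding genes tested on each chromosome; bottom, the share of these genes called at least 2-fold higher (red) or lower (blue), with the number of genes tested under each chromosome. Chromosome 11 stands at a median of 0.38 with 10.3% of genes higher, chromosome X at 13.2% higher, and chromosome Y rests on 9 genes.

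Genes of long intergenic RNAs (lincRNA) rose past 2-fold about as often as all genes and fell somewhat more often. Of 600 lincRNA genes 21 were called at least 2-fold higher and 72 lower (3.50% and 12%, against 3.67% and 9.41% of all genes). Their median log2 difference was −0.29, against 0.0069 for all genes tested. Of 280 antisense genes 2 were called at least 2-fold higher and 31 lower (0.714% and 11.1%). The sources used here do not say whether counting used the strand, so antisense genes cannot be told from their partners. By level, falls were most frequent among genes of low but not of the lowest signal: in the third of 10 equal classes of genes by mean signal, from 1.51 to 3.44, 92 were at least 2-fold higher and 363 lower, in the lowest class 29 and 104, and in the highest class 36 and 40. The median CpG count of the 250 bases before the start was 8 for genes at least 2-fold higher, 7 for genes at least 2-fold lower and 12 for the rest, as a description. Among the genes at least 4-fold lower 37.8% had at most 3 CpG there, against 20.6% of the genes at least 4-fold higher and 18.4% of all tested.

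One further library each of WT and Dnmt1-null cells stands in a joint table of counts that was made apart from these files. With 1 library per group it allows no test, and its values are set beside the replicates as a description. Dnmt1 had 455 in WT and 62.9 in Dnmt1-null cpm there, Dazl 40.4 in WT and 117 in Dnmt1-null and Scml2 7.17 in WT and 71.7 in Dnmt1-null, so these markers went the way they did in the replicates. Other genes of DNA methylation did not: Tet1 had 177 in WT and 521 in Dnmt1-null cpm, Tet2 30.8 in WT and 79.4 in Dnmt1-null and Zbtb38 12.4 in WT and 30.7 in Dnmt1-null, all higher in the single null library, and Dnmt3l, with 1226 in WT and 1016 in Dnmt1-null, and Dnmt3b, with 452 in WT and 422 in Dnmt1-null, were not higher there. Genes were compared where the WT and null libraries together held 100 counts or more. There, 269 of 451 genes (59.6%) that were at least 2-fold higher in the replicates were also higher in the single null library, and 429 of 614 (69.9%) of those at least 2-fold lower were also lower. Over all 11686 tested genes that could be compared in this way, 48.3% were higher there.

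Some programmes went the other way in the single libraries. Isg15 was counted 11 times in the single WT library and 14 times in the null library, and Ifit1 2 and 19 times, so the level of the WT replicates was not seen in the single WT library. Of 15 interferon genes with enough counts 14 were higher in the null library. All 16 trophoblast genes compared were lower there, Krt8 among them with 269 in WT and 20.3 in Dnmt1-null cpm and Peg10 with 1422 in WT and 419 in Dnmt1-null cpm. Glycolysis genes were lower in 17 of 23 cases and primitive endoderm genes in 14 of 17, and Lefty1 was higher, with 47.3 in WT and 233 in Dnmt1-null cpm. Zfp genes, which leaned lower in the replicates, were higher in 110 of 196 cases. On chromosome Y, Uty was counted 20 times in the WT and 425 times in the null library, Ddx3y 55 and 1057 times, Eif2s3y 110 and 1117 times and Kdm5d 1 and 76 times, the reverse of the replicates. The falls of the fibroblast list (11 of 13 lower), of the SRF and YAP list (14 of 16) and of the 2-cell-like list (11 of 11), and the rise of cholesterol genes (20 of 22 higher), had the same sign in both. The level of the WT replicates was not seen here either for matrix, actin and cytokine genes: Col1a1 had 14.5 in WT and 6.69 in Dnmt1-null cpm, Acta2 14.2 in WT and 2.89 in Dnmt1-null and Lox 2.83 in WT and 0.802 in Dnmt1-null, and Il6 and Ccl7 had 1 and 0 counts in the single WT library. Single members also differed in sign: the matrix genes Fn1, with 545 in WT and 849 in Dnmt1-null cpm, and Spp1, with 59.4 in WT and 266 in Dnmt1-null cpm, were higher in the single null library.

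**Figure D5:**
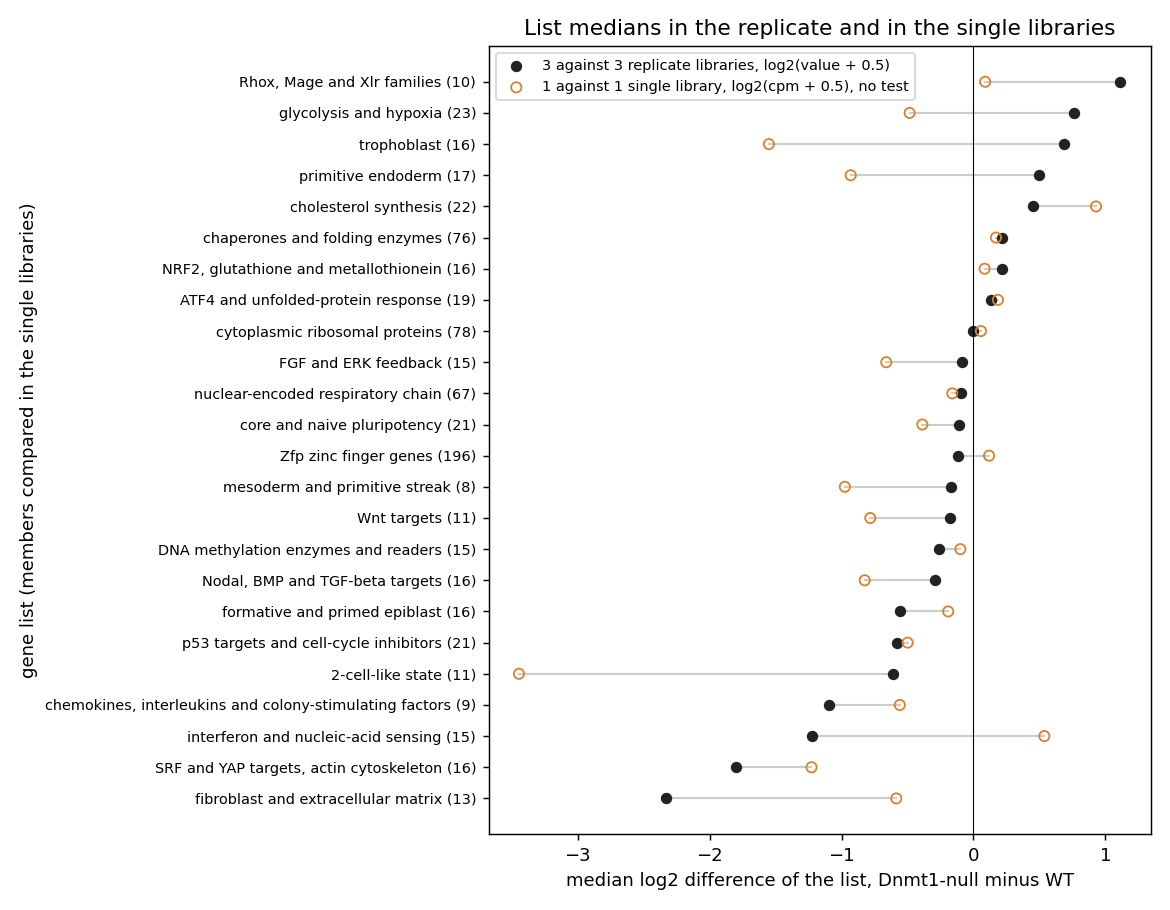
Median log2 difference, Dnmt1-null minus WT, of each gene list with at least 8 members compared, in the replicate libraries (black, 3 against 3, all tested members) and in the single libraries (open orange, 1 against 1, members with at least 100 counts, no test). The interferon, trophoblast, primitive endoderm and glycolysis lists lie on opposite sides of 0, as do, close to 0, the Zfp and the cytoplasmic ribosomal protein lists.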

How the data were processed

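PolyA RNA of untreated ES cells was sequenced. Per the labels and the study's methods, reads were mapped to mm10 with HISAT2 2.1.0 and counted on Ensembl v87 genes with featureCounts 1.5.0; the labels name a TruSeq kit that does not mark strand and the methods a stranded one, and the strand setting of the counting is not given in the sources used here. The authors deposited, for each of the 6 replicate libraries, a normalized signal per gene, reads divided by 1 factor per library, and for the single libraries they deposited raw counts. The headers of these 6 files name other columns than the files hold, and symbols and values were read by column position. Divided by the smallest non-zero value, 100% of values were whole reads within 0.01.

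Values were tested as log2(value + 0.5) with limma 3.58.1 (trend) over 17297 genes that passed edgeR's filterByExpr on recovered reads, Benjamini-Hochberg adjusted, with no covariate. On those reads edgeR 4.0.16 (quasi-likelihood) called 6026 genes higher and 6226 lower, and DESeq2 1.42.0 5665 and 5739. A limma fit on counts scaled by library total and the edgeR and DESeq2 fits were also run on simulated counts. The other fits were not. Of 26797 genes, 26679 matched GENCODE vM21 (GRCm38), which gave positions and types. Computations ran in R 4.3.3 and Python 3.11.15.

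The gene lists, 26 from the outset and 3 added after values were seen, and the members were chosen with earlier results of these data known. Named genes were Dnmt1, Dazl and Scml2, the 12 largest rises and falls, up to 2 rises and 2 falls at least 2-fold per list, the 10 largest gains and losses in mean value and genes read in one group only; other list members were named for their known role, and some genes that the rule names are not reported here. Alternatives for scaling, pseudocount, filter, test, replicate block, left-out libraries and chromosome 11 were run. No replicate pair agreed within sampling noise (chi-square per degree of freedom from 3.03 to 10.8). List entries with no row in the files were not analysed here. Figures were drawn with matplotlib 3.10.9.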

Additional observations from a re-analysis of the deposited data

How the results depend on the processing

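Under the 16 alternatives the count of genes called lower at an adjusted p under 0.05 changed by over 1.5 times once, to 3645 when genes with a mean value under 5 were left out, which tests 11374 genes. Counts past 2-fold moved more: higher and lower they were 375 and 787 with that filter and 350 and 920 with a pseudocount of 2. With a pseudocount of 0.1 they were 926 and 2294. By edgeR's quasi-likelihood test on recovered reads they were 982 and 2501, and by DESeq2 970 and 2452. The cause of these differences in count was not tested. Scaling each library by its own total of reads shifted the median of all genes to −0.078 and gave 5067 genes higher and 7125 lower, so that 58.4% of calls were lower against 49.7%; it turned the uncalled differences of Nanog and Zfp42 to −0.014 and −0.016 and ended the calls of Dnmt3a, Mavs and Nodal. Without Dnmt1-null replicate 1 Nodal was also not called, at 0.12, and the uncalled difference of T ran from −0.17 to 0.068 over the left-out libraries. DESeq2 did not call Tdpoz2.

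With 1 library left out in turn, 5851 to 6112 genes were called higher and 5765 to 6016 lower, 625 to 658 and 1612 to 1680 of them at least 2-fold. Same-numbered WT and Dnmt1-null libraries did not deviate together (correlations 0.0740, −0.0164 and 0.0652), and not every library correlated best with its own number, so the numbers were not taken to pair samples. With the number as a replicate block, 6344 genes were called higher and 6212 lower. Over all alternatives, an uncalled named gene gained a call in 14 of 3159 results. Of these gains, 3 came with the block and 3 with each library scaled by its own total. Of the list counts, 32 of 896 changed by over 1.5 times, 14 of them with the filter at a mean value of 5, which leaves fewer members to test.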

Other observations

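A few genes at least 4-fold lower in Dnmt1-null cells, picked after their values were seen and because they fell, are known from the mesothelium, the lining of body cavities. Upk3b, a uroplakin of that lining, was at 118, 132 and 93.5 in WT against 9.71, 10.2 and 9.03 in Dnmt1-null cells, and Wt1, a transcription factor of mesothelium and kidney, at 18.6, 18.4 and 15.6 in WT and 3.41, 3.16 and 4.09 in Dnmt1-null libraries. Bnc1, a zinc finger gene of mesothelium and keratinocytes, was lower by 2.19 and Muc16, a mucin, by 2.15 on the log2 scale. All were read in each WT library and lower in each Dnmt1-null library. In the single libraries Upk3b was lower in the null library, with 3.23 in WT and 1.66 in Dnmt1-null cpm, Wt1 was not, with 3.79 in WT and 5.19 in Dnmt1-null cpm, Muc16 had 1 count in WT and 7 in Dnmt1-null, and Bnc1 had 3 in each. Ptgs2, the inducible prostaglandin synthase, was at 238, 231 and 187 in WT against 44.2, 44 and 41.6 in Dnmt1-null cells, and Lif, the cytokine that is also added to the medium, at 94.9, 105 and 76.5 in WT and 16.6, 16.1 and 16.2 in Dnmt1-null libraries (log2 difference −2.45, standard error 0.078, adjusted p = 1.2e-18). As for the fibroblast list, WT replicate 3 had the lowest WT value of both Ptgs2 and Lif.

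Some genes of epithelia were higher, picked after their values were seen and because they rose, while the epithelial genes Krt7, Upk1b and Muc16 were lower. Erbb3, a receptor of the EGF family, was at 23.2, 25.5 and 26.3 in WT against 95.1, 98 and 104 in Dnmt1-null cells, Ocln, a tight junction protein, at 3.73, 3.12 and 2.62 in WT and 15.9, 13.5 and 16.1 in Dnmt1-null libraries and Wnt7b, a ligand of epithelial and placental tissue, at 2.16, 2.18 and 2.37 in WT against 17.1, 18.8 and 17.5 in Dnmt1-null cells. Krt17, a keratin on chromosome 11, was at 2.62, 2.62 and 3.12 in WT and 24.2, 25.4 and 23.5 in Dnmt1-null libraries. Each of these was called higher, the last by 2.92 on the log2 scale. In the single libraries Wnt7b, with 48.6 in WT and 22.1 in Dnmt1-null cpm, and Erbb3, with 82.4 in WT and 63.2 in Dnmt1-null, were lower in the null library, and Ocln, with 9.32 in WT and 19.2 in Dnmt1-null, and Krt17, with 18.4 in WT and 45.8 in Dnmt1-null, were higher. The broadly expressed epithelial genes of ES cells changed less: Epcam was higher by 0.78 and Cdh1, the E-cadherin gene, by 0.40. Ftl1, the ferritin light chain gene, was at 181, 193 and 167 in WT against 651, 635 and 654 in Dnmt1-null cells, while the pseudogene Ftl1-ps2 was at 43.9, 44.2 and 49.5 in WT and 0.0696, 0.0986 and 0.0737 in Dnmt1-null libraries; reads of the pair can be shared.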
